A study of Mus musculus with 12 samples.

Results

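The cerebellum was compared between mice that lost the kinase gene Atr in the granule cell lineage and mice that kept it, in animals that lacked, by genotype, the Bax and Bak needed there for mitochondrial apoptosis. The 3 mutant samples carried Math1-Cre, were homozygous for floxed Atr (Atr-loxP/loxP) and floxed Bax (Bax-loxP/loxP), and lacked Bak (Bak--/-). The 3 control samples carried Math1-Cre, Bax-loxP/loxP and Bak--/- without floxed Atr. These were 6 of the 12 arrays of the study, chosen by genotype, and every exon region and exon junction probe set of those arrays was used. All animals were C57BL/6 and were taken at postnatal day 3. Both groups carried the Cre transgene, floxed Bax and the Bak deletion, so the groups differed by label in floxed Atr alone. The other 6 arrays served for comparison only. They came from Atr p53 mutants and p53 controls, which carried Math1-Cre and floxed p53 with and without floxed Atr and whose labels give no Bax or Bak allele. They also lent their spread to the fit.

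Atr is a kinase that is recruited to single-stranded DNA at stalled replication forks and signals through Chk1 to hold back origin firing and mitotic entry. When DNA damage accumulates, p53 (Trp53) is stabilised and switches on genes for arrest, repair and death, and Bax and Bak open the mitochondrial outer membrane in the death that follows. Granule cell precursors divide in the external granule layer of the newborn cerebellum under the drive of Sonic hedgehog (Shh), then leave the cycle and migrate inward as neurons. Math1-Cre is active in that lineage, so Purkinje cells, interneurons, glia and vessels keep Atr and Bax, whereas the Bak deletion is not restricted to a lineage.

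RNA came from whole cerebellum with the meninges removed, and 500 ng of total RNA went into each labelling. In such bulk samples, fewer cells of a type and less RNA per cell cannot be told apart. Values were log2 signals with medians from 6.475 to 6.494 on the 6 arrays. Negative control probe sets were brighter in mutants (mean 4.43 ± 0.13, SD, n = 3) than in controls (4.11 ± 0.12, SD, n = 3), a difference of 0.325, and the exact two-sided permutation test gave p = 0.1, the smallest that 3 against 3 allows. Mutant arrays all share 1 sample name prefix that no other group has, so the meaning of that prefix and the genotype cannot be told apart. On the first principal component of the 6 arrays (41.3% of the variance) the controls lay between -206 and -119 and the mutants between 128 and 181. None of the probe sets given a name belonged to Atr, Bax or Bak1, and the deletions were not analysed here.

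Of 719071 probe sets tested over the whole array, 37680 (5.24%) differed at an adjusted p under 0.05, with 15996 (2.22%) higher and 21684 (3.02%) lower in the mutants. This count was sensitive to every library. It came to 12013, 15664 and 10334 when mutant 1, 2 or 3 was dropped, and to 15943, 7554 and 14828 when the same was done for controls 1, 2 and 3. Dropping control 2 left the fewest calls in 40 of the 52 gene lists and families used below. With each array's mean negative control signal as a covariate, which itself separates the groups, 759 probe sets passed. Gene names were given by the authors' deposited table to probe sets that passed their own test of these same 6 samples. The 7916 named genes, each the mean of its named probe sets, are therefore selected for a difference, and 6153 (77.7%) were called, 2495 (31.5%) higher and 3658 (46.2%) lower, with 252 more in both directions. In 98.5% of named genes the mutants and controls did not overlap. Counts within any group of genes below are to be read beside these shares, and beside the median log2 difference of -0.34 over all named genes. Gene means hold only probe sets selected on these same samples. The folds, standard errors and adjusted p-values of genes below therefore favour a difference and are not independent evidence of it. A call for a gene required that its mean pass, that 1 or more of its probe sets pass among all 719071 in the same direction, and that none pass in the other.

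Targets of p53 were higher in the mutants in each of their 3 groups. Of 18 named genes of p53 feedback and cell cycle arrest, 15 rose and 2 fell, with a median of 0.76. Cdkn1a encodes p21, the inhibitor of cyclin-dependent kinases. Its log2 signal was 10.88, 11 and 10.88 in mutants 1 to 3 and 9.59, 9.39 and 9.35 in controls 1 to 3, a 2.79-fold rise (log2 difference 1.48 ± 0.07, SE; adjusted p = 1.87e-07). The groups were well apart and the mutants differed among themselves by little. Mdm2, the ubiquitin ligase that degrades p53, read 9.87, 9.88 and 9.87 in mutants against 9.17, 9.23 and 9.21 in controls (0.67 ± 0.05, adjusted p = 2.91e-06). Trp53 itself had 6 named probe sets and rose by 0.67 ± 0.06 (9.68, 9.75 and 9.78 against 9.16, 9.0 and 9.05; adjusted p = 9.22e-06). Other members of the group that rose were the stress gene Sesn2 (1.16), the cyclin Ccng1 (1.0), Trp53inp1 (1.44), the phosphatase gene Ptprv (1.62), the receptor Eda2r (1.66) and the RNA-binding gene Zmat3 (0.50). Plk3 (-0.42), a stress-responsive kinase, and Pml (-0.99), the nuclear body gene, fell.

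Death genes downstream of p53 rose, with 10 of 12 named members higher, 1 lower and a median of 0.94. Fas, the death receptor, was near the negative controls in the control group at 4.35, 4.20 and 4.22 and reached 6.65, 6.73 and 6.54 in the mutants. That is a 5.22-fold difference (log2 2.38 ± 0.07, adjusted p = 3.46e-09). A second death receptor gene, Tnfrsf10b, read 7.86, 8.04 and 7.86 in mutants and 6.53, 6.33 and 6.12 in controls (1.59 ± 0.13, adjusted p = 3.48e-06). A pair of genes for BH3-only proteins, which act on Bax and Bak, rose as well. Pmaip1, which encodes Noxa, stood at 7.85, 7.93 and 7.97 against 5.94, 6.01 and 6.33 (1.83 ± 0.12, adjusted p = 1.24e-06), and Bbc3, which encodes Puma, at 7.95, 8.06 and 8.30 against 7.15, 7.20 and 7.30 (0.89 ± 0.10, adjusted p = 1.82e-05). Pidd1, a scaffold for caspase-2, rose by 1.18, and Bid, whose product links death receptors to mitochondria, fell by 0.45 on the log2 scale.

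Among 22 named p53 targets in repair, metabolism and other roles, 17 rose and 4 fell (median 0.77). Cd80, a costimulatory ligand for T cells, read 7.33, 7.46 and 7.41 in mutants and 5.31, 5.0 and 4.75 in controls, 5.20-fold apart (2.38 ± 0.13, adjusted p = 3.85e-07). The membrane protein gene Ano3 (1.38), the reductase gene Dcxr (1.32), Phlda3 (1.21), which encodes an inhibitor of Akt, the peptide transporter gene Tap1 (0.93) and the thiamine transporter gene Slc19a2 (0.93) were also higher. The members that fell included Rrm2b (-0.53), the p53-induced subunit of ribonucleotide reductase, on 1 probe set, and 9630033F20Rik (-0.77), which RefSeq lists as Tigar. Bloc1s2 (-0.83) and Tsga10 (-0.71) were lower as well. With any 1 of the 6 arrays left out, 12 to 13, 7 to 8 and 11 to 14 members of the 3 groups were called higher. Over the p53-deleted pair of groups, the medians of the same members were -0.03, -0.08 and -0.06, beside -0.03 over all named genes. Names were given by a test of the apoptosis-blocked pair, and that selection alone favours smaller differences in the other pair.

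**Figure D1:**
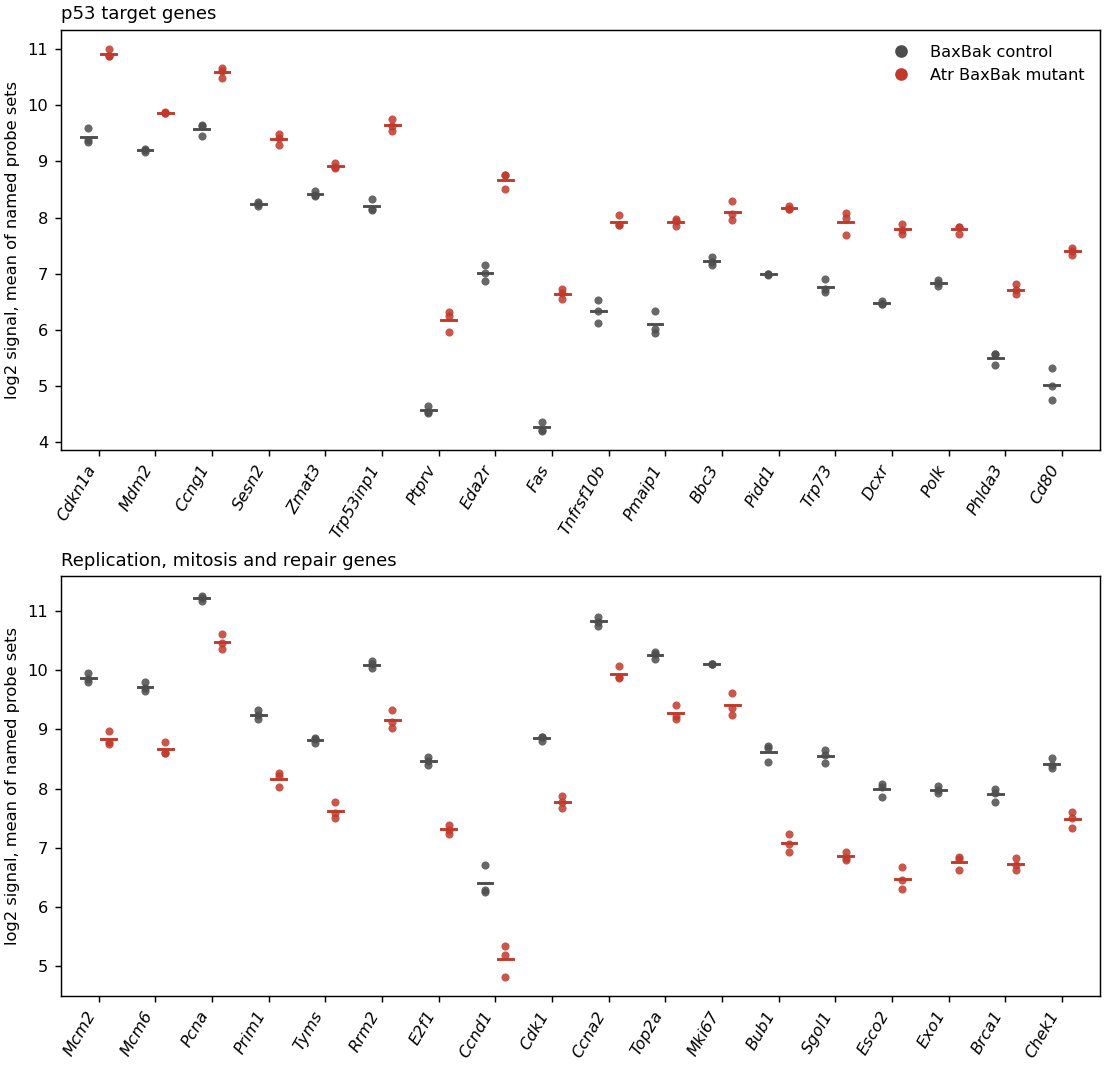
Log2 signal of p53 target genes (top) and of replication, mitosis and repair genes (bottom) in each of the 6 samples; points are samples and bars are group means of 3. The mutants lie above the controls for Cdkn1a, Fas and Pmaip1 and below them for Bub1, Sgol1 and Esco2.

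Genes of DNA replication were lower in the mutants. Of 27 named genes of replication origins and the replicative helicase, 25 fell, none rose and the median was -0.93, and of 28 genes of polymerases, primase and the sliding clamp all 28 fell (median -0.81). Mcm6, a subunit of the helicase, read 8.60, 8.79 and 8.60 in mutants against 9.70, 9.80 and 9.65 in controls, a 2.07-fold fall (log2 difference -1.05 ± 0.15, adjusted p = 6.69e-05). Pcna, the clamp itself, was bright in both groups, at 10.46, 10.61 and 10.35 against 11.17, 11.21 and 11.26 (-0.74 ± 0.07, adjusted p = 8.54e-06). Mcm2 (-1.03), Cdc45 (-0.99), Prim1 (-1.07), the primase gene, and the clamp loader genes Rfc4 (-0.89) and Rfc5 (-0.92) were lower too. Leaving out any 1 array, 20 to 24 and 25 to 28 members of these groups were called lower, and 2 and 7 were with the negative control covariate.

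Supply of deoxynucleotides and the entry into S phase followed the same direction. Of 18 named nucleotide genes 16 fell and none rose (median -0.66). Tyms, the thymidylate synthase gene, was 2.30-fold lower at 7.58, 7.77 and 7.50 against 8.84, 8.85 and 8.77 (-1.20 ± 0.07, adjusted p = 6.35e-07). Rrm2, the S phase subunit of ribonucleotide reductase, fell by 0.94, as did the thymidine kinase gene Tk1. In the G1/S group of 21 named genes, 19 fell and 2 rose (median -0.65). E2f1, an activator of S phase genes, read 7.24, 7.39 and 7.30 in mutants and 8.39, 8.54 and 8.46 in controls (-1.15 ± 0.11, adjusted p = 9.95e-06). Ccnd1, the D-type cyclin through which Shh drives precursor division, had 1 named probe set and fell by 1.29 ± 0.23 (adjusted p = 0.000199). Cdkn1b, which encodes the inhibitor p27, also fell (-0.65). The G1/S genes called higher were Rb1 (1.36, 1 probe set) and Myc (0.53), whereas Mycn, the Myc family gene of granule cell precursors, fell (-0.59). In the fits that leave out 1 array, 7 to 13 nucleotide genes and 13 to 17 G1/S genes were called lower.

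Mitotic genes were lower in the mutants. Of 34 named genes of mitotic entry and exit, 32 were lower and none higher (median -0.85), and of 43 kinetochore and spindle checkpoint genes 42 were lower and none higher (median -0.90). With the negative control covariate 7 and 13 of them were called lower. Sgol1, which RefSeq lists as Sgo1 and whose product protects cohesin at centromeres, read 6.83, 6.93 and 6.80 in mutants and 8.43, 8.56 and 8.65 in controls, 3.24-fold apart (-1.69 ± 0.12, adjusted p = 1.56e-06). The checkpoint kinase gene Bub1 had 48 named probe sets and was 2.90-fold lower, at 7.06, 7.24 and 6.93 against 8.45, 8.68 and 8.72 (-1.54 ± 0.12, adjusted p = 3.24e-06). It lies on chromosome 2, whose deep falls of single probe sets are given below. Cdk1, the kinase of mitotic entry, fell 2.10-fold from 8.80, 8.87 and 8.87 to 7.77, 7.88 and 7.68 (-1.07 ± 0.06, adjusted p = 5.4e-07). In none of these genes did a mutant reach a control, which was also so in 98.5% of all named genes.

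Smaller but called falls were seen for Ccna2 (-0.88), Top2a (-0.98), Foxm1 (-0.72), a transcription factor of G2 and M phase genes, and Mki67 (-0.70), the proliferation marker. The kinetochore genes Ska1 (-1.30) and Nuf2 (-1.17) and the survivin gene Birc5 (-0.78) fell. Of 19 cohesin and condensin genes 18 were lower and none higher (median -0.61), led by Esco2, the acetyltransferase that fixes cohesion in S phase (6.45, 6.68 and 6.31 against 7.86, 8.03 and 8.08; -1.51 ± 0.14, adjusted p = 8.06e-06). The next in that group was Cdca5 (-1.26), which encodes sororin. Leave-one-out counts were 26 to 31, 38 to 40 and 11 to 16 members lower in the 3 groups.

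The falling groups are known for short promoter motifs, so the 300 bases around the start of a mitotic, a checkpoint and a helicase gene are shown to set the letters beside the values. Sequences were taken from RefSeq (GRCm38.p6), run 5′ to 3′ on the gene's strand and cover 250 bases before the start and 50 from it. Capitals mark TTTGAA, the letters of the cell cycle homology region (CHR), and CCAAT, the box bound by NF-Y, in Cdk1 (chr10:69352863-69353162, minus strand) and Bub1 (chr2:127831810-127832109, minus strand). In Mcm6 (chr1:128359656-128359955, minus strand) they mark the E2F letters TTTCGCGC or TTTGGCGC. Each motif was searched on both strands, so a box may read as its reverse complement.
Cdk1: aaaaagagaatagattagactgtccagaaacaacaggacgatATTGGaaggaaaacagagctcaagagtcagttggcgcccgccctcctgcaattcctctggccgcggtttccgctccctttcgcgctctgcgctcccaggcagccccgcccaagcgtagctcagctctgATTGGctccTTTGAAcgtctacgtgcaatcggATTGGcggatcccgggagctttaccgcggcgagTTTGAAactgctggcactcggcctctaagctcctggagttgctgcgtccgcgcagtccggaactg
Bub1: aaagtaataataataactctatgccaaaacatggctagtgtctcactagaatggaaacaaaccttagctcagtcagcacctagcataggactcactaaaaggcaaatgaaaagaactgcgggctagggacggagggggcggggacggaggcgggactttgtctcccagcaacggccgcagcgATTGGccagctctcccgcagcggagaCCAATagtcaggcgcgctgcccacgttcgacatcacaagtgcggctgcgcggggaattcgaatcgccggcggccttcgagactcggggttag
Mcm6: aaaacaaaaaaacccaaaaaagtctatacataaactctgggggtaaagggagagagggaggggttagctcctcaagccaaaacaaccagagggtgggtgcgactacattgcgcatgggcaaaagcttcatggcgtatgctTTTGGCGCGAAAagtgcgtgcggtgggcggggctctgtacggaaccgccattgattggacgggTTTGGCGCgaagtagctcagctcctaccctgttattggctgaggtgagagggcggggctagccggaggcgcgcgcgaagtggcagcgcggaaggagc
Cdk1 holds TTTGAA at -71 and -15 and a CCAAT box at -208, -80 and -48, counted from the start. Bub1 holds a CCAAT box at -68 and -42 and no TTTGAA. Mcm6 holds the E2F letters at -110, -106 and -47, the first pair overlapping. Capitals leave out some matches, since Cdk1 also holds the E2F letters, at -131, and Mcm6 also holds CCAAT boxes, at -57 and -14.

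Over all 27025 genes with a promoter in the table, 20.2% held TTTGAA, 41.1% CCAAT and 0.929% the E2F letters, and over 5570 named genes the shares were 15.7%, 43.4% and 2.12%. Among the 26 mitotic entry and exit genes with a promoter, 19 (73.1%) held TTTGAA and 20 (76.9%) CCAAT, and 1 held the E2F letters. Of 38 kinetochore genes, 17 (44.7%) held TTTGAA and 26 (68.4%) CCAAT. The E2F letters were in 7 of 20 replication origin genes (35.0%), 6 of 24 polymerase and clamp genes (25.0%) and 5 of 16 G1/S genes (31.2%). CCAAT was also in 13 of the 20 origin genes (65.0%). Of 16 nucleotide genes, which also fell, 2 (12.5%) held TTTGAA and none the E2F letters, and of 27 recombination genes 3 (11.1%) held TTTGAA. None of the 14 p53 feedback and arrest genes with a promoter held TTTGAA, but 8 (57.1%) held CCAAT. Among the groups that fell, the CCAAT share ran from 40.0% in cohesin and condensin genes and in proteasome genes to 90.0% in sterol synthesis genes. A match describes the letters in the window and no binding was measured.

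Repair and checkpoint genes that act at forks and breaks fell as well, with exceptions. Of 36 named genes of homologous recombination and the Fanconi pathway, 30 fell and 4 rose (median -0.71). Exo1, a nuclease gene of resection and mismatch repair, read 6.85, 6.81 and 6.63 in mutants and 7.92, 8.04 and 7.98 in controls (-1.22 ± 0.10, adjusted p = 3.27e-06). Brca1 (-1.18) was lower, and so was Rbbp8 (-1.0), which encodes the resection factor CtIP. The members called higher were Helq (1.15), a helicase gene, Fancg (0.56), Rad52 (0.52) and Dmc1 (0.44), all but Fancg on a single probe set. Of 21 checkpoint signalling genes 17 fell and 3 rose (median -0.56). Chek1, which encodes the kinase Chk1 that Atr activates, read 7.51, 7.61 and 7.33 against 8.35, 8.51 and 8.39 (-0.93 ± 0.11, adjusted p = 2.06e-05). Clspn (-1.09), the adaptor between Atr and Chk1, and the fork protection gene Tipin (-0.88) were lower, and the ubiquitin ligase gene Rnf8 (0.89), Rad9b (0.55) and the nuclease gene Dclre1c (0.51) were higher. The rise of Dclre1c rested on 2 probe sets, and its brighter one alone gave -0.37. With 1 array left out, 20 to 28 recombination genes and 6 to 10 checkpoint genes were called lower, and 0 to 1 and 0 to 3 higher.

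Markers of granule cell precursors were present and reduced. Of 25 listed genes 11 were named, 8 of them fell and none rose (median -0.54). Their summed level was 13.58 to 13.62 in mutants and 13.93 to 14.09 in controls. Summed levels here and below are the log2 of the signals added on the linear scale, so the brightest genes weigh most. Atoh1, the transcription factor gene (also called Math1) whose control sequences drive the Cre, had 1 named probe set at 8.94, 9.06 and 8.97 against 9.53, 9.69 and 9.65 (-0.64 ± 0.13, adjusted p = 0.000421). The lineage factors Barhl1 (-0.66), Pax6 (-0.72) and Meis1 (-0.46) fell, and Zic1, the brightest of the defining markers, stood at 11.49 against 11.79 on average without a call. Of 7 named Shh response genes 3 fell, among them Sfrp1 (-1.02), a secreted Wnt modulator, and 2 rose, with the receptor component gene Smo (0.69) on 1 probe set. Gli1, the transcriptional readout of Shh, read 8.93, 9.10 and 9.18 in mutants and 8.82, 8.66 and 8.82 in controls and was not called. Without any 1 array, 4 to 6 precursor genes were lower, and of the Shh response genes 1 to 3 were lower and 0 to 1 higher.

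Genes of postmitotic granule neurons moved both ways, with 7 of 17 named members higher and 5 lower (median 0.29). Their summed level, in which bright genes weigh most, went against that median, at 13.88 to 13.9 in mutants and 13.96 to 14.05 in controls. The transcription factor gene Tcf4 (0.86) and the adhesion gene Nrcam (0.72) rose. Gap43 (-0.54), a growth cone gene, fell. The NMDA receptor genes parted, with Grin2a at 6.76, 6.97 and 6.77 in mutants against 6.34, 6.27 and 6.24 in controls (0.55 ± 0.08, adjusted p = 5.16e-05) and Grin2b at 6.41, 6.25 and 6.42 against 7.02, 7.22 and 7.20 (-0.79 ± 0.11, adjusted p = 6.8e-05). The fits without 1 array called 1 to 5 members higher and 2 to 4 lower. Each receptor gene rested on 1 probe set, and these named probe sets do not stand for the whole gene.

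Markers of cells that keep Atr were mostly higher. Among Purkinje cell genes, 12 of 17 named members rose and 4 fell (median 0.63), and the summed level was 13.63 to 13.76 in mutants against 13.22 to 13.33 in controls. Pcp2, a Purkinje cell marker, read 10.04, 10.24 and 10.09 in mutants and 8.79, 8.46 and 9.08 in controls, 2.54-fold apart (1.34 ± 0.18, adjusted p = 4.2e-05). Calb1 (1.06), the calcium buffer calbindin, and Rora (0.74) rose with it, and the transcription factor genes En1 (-0.95), Ebf1 (-0.40) and Ebf3 (-0.42) fell. The defining markers Car8 and Skor2 had no named probe set. Of 14 named GABAergic interneuron genes 12 rose and none fell (median 0.68; summed level 13.72 to 13.88 against 13.24 to 13.36), with Gad1 and Gad2, the genes of the enzymes that make GABA, at 0.74 and 0.77.

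Glial genes were higher. Of 17 named astrocyte and Bergmann glia genes 15 rose and none fell (median 0.64), and the sum was 14.38 to 14.51 in mutants against 13.71 to 13.77 in controls. Gfap, the intermediate filament of reactive astrocytes, read 11.34, 11.41 and 11.83 in mutants and 10.28, 9.97 and 10.62 in controls, a 2.36-fold rise (1.24 ± 0.21, adjusted p = 0.000194). The water channel gene Aqp4 (1.03) and the glutamate transporter gene Slc1a3 (0.91) were higher. In the oligodendrocyte lineage 15 of 16 named genes rose and none fell (median 0.76; 13.37 to 13.72 against 12.74 to 12.96). The master regulator Sox10 read 9.06, 8.92 and 9.21 against 8.14, 8.23 and 8.25 (0.85 ± 0.09, adjusted p = 1.71e-05), and Olig2 rose by 0.44. The defining marker Pdgfra went the other way on average, at 8.25 in mutants and 8.97 in controls (-0.72). Its 6 named probe sets included calls in both directions.

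Vessel genes rose in 6 of 8 named members (median 0.60; 11.89 to 12.06 against 11.44 to 11.49), among them Vwf (0.77) and Notch3 (0.56), although the endothelial markers Pecam1, Cldn5 and Flt1 had no named probe set. Microglial genes did not move as a group. Of 10 named genes 4 rose and 3 fell, and the summed levels overlapped at 11.62 to 11.73 and 11.61 to 11.78. C1qc (0.72), Itgam (0.59) and the lysosomal gene Cd68 (0.59) were higher, the macrophage receptor gene Mrc1 (-0.63) and the osteopontin gene Spp1 (-1.34) were lower, and Cx3cr1 and P2ry12, defining markers of microglia, were not called. Of 3 named meningeal genes Bgn and Vtn were higher and Col1a1 lower, and the summed level was lower, at 8.45 to 8.75 against 9.25 to 9.37. Col1a1 made up most of that sum in controls, at 9.21 on average. How far a changed share of cells in the tissue enters each gene was not tested. With the negative control covariate, no astroglial, oligodendrocyte or vessel gene was called, 1 Purkinje and 2 GABAergic genes were, and the medians stayed between 0.59 and 0.74. With 1 array left out, 7 to 11 Purkinje, 7 to 11 GABAergic and 8 to 11 astroglial genes were called higher. So were 5 to 11 oligodendrocyte, 2 to 4 vessel and 0 to 3 microglial genes. Those called lower were 0 to 2 Purkinje, 1 oligodendrocyte and 2 to 3 microglial genes.

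Channel, receptor and synapse genes were more often higher than lower. Of 20 named voltage-gated sodium and calcium channel genes 16 rose and 1 fell (median 0.49), with Cacna1a, which encodes the main P/Q-type calcium channel subunit, at 9.95, 10.01 and 9.98 against 9.33, 9.34 and 9.48 over 65 probe sets (0.60 ± 0.07, adjusted p = 2.25e-05). Potassium channel genes rose in 18 and fell in 7 of 29, with Kcnj5 (1.19) and the glial channel gene Kcnj10 (0.76) among those higher. Of 32 synapse scaffold and vesicle genes 20 rose and 7 fell (median 0.41). The vesicle calcium sensor gene Syt1 (1.30), the adhesion gene Nrxn3 (0.92, 42 probe sets) and the fusion gene Snap25 (0.74) were higher, and the priming genes Unc13a (-0.68) and Unc13c (-0.80) lower. Glutamate and GABA receptor genes rose in 15 and fell in 3 of 19. Gabrb2, a GABA-A receptor subunit gene, lay on average under the negative controls in the control group (3.98, 4.04 and 4.08). Control 2 was slightly above the negative control mean of its own array (3.969). Mutants lay above theirs (5.87, 5.60 and 5.64), at least 2.97-fold higher than controls. Axon guidance genes divided, 17 of 40 higher and 12 lower. With 1 array left out, the counts of genes higher were 7 to 12, 9 to 12, 9 to 13, 4 to 7 and 6 to 12 in these 5 groups.

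Histone genes, many of whose messages are made in S phase, were mostly lower. All 4 named linker histone genes fell (median -0.79), with Hist1h1b, which RefSeq lists as H1f5, 2.42-fold lower at 7.13, 7.26 and 6.81 against 8.35, 8.37 and 8.31 (-1.28 ± 0.09, adjusted p = 1.93e-06). Of 26 core histone genes 18 fell (median -0.62), and the variant gene H2afz fell by 0.72. Hist1h4k was the exception at 0.76 on 1 probe set. Sterol synthesis genes fell in 15 of 18 named members with no rise (median -0.56). Fdps, the farnesyl diphosphate synthase gene, read 8.39, 8.46 and 8.54 in mutants and 9.26, 9.35 and 9.33 in controls (-0.85 ± 0.08, adjusted p = 7.12e-06). The enzyme gene Acat2 (-0.64) fell with it. In the fits without 1 array, 3 to 4, 11 to 17 and 10 to 13 members were called lower.

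Housekeeping machines showed smaller falls. Splicing factor and hnRNP genes were lower in 38 and higher in 5 of 50 (median -0.49), proteasome genes in 27 and 1 of 35 (median -0.45), cytosolic ribosomal protein genes in 23 and 1 of 31 (median -0.41) and mitochondrial ribosomal protein genes in 20 and 2 of 27 (median -0.51). Rps7, among the brightest genes of the array, read 11.93, 11.93 and 11.84 against 12.40, 12.49 and 12.51 (-0.56 ± 0.08, adjusted p = 4.7e-05). These counts shrank to 13 to 26, 8 to 15, 5 to 10 and 9 to 12 genes lower with 1 array left out. Their medians lie closer to the -0.34 of all named genes than those of the replication and mitosis groups.

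Genes of the core apoptosis machinery split evenly, with 4 of 12 named members higher and 4 lower. Bcl2l11, which encodes the BH3-only protein Bim, rose (0.67), and Bmf (-0.69) and Bok (-0.72), a relative of Bax and Bak, fell. Of 7 named interferon genes 4 rose and 3 fell. Irf9 (0.86), Usp18 (0.92) and Mx2 (0.83), all parts or targets of interferon signalling, were higher, and Ifit2 (-0.73), Stat2 (-0.49) and Samhd1 (-0.59) lower, on 1 or 2 probe sets for Irf9, Usp18, Mx2 and Ifit2. The fits without 1 array called 2 to 3 apoptosis genes higher and 2 to 4 lower, and 3 to 4 interferon genes higher and 2 lower.

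**Figure D2:**
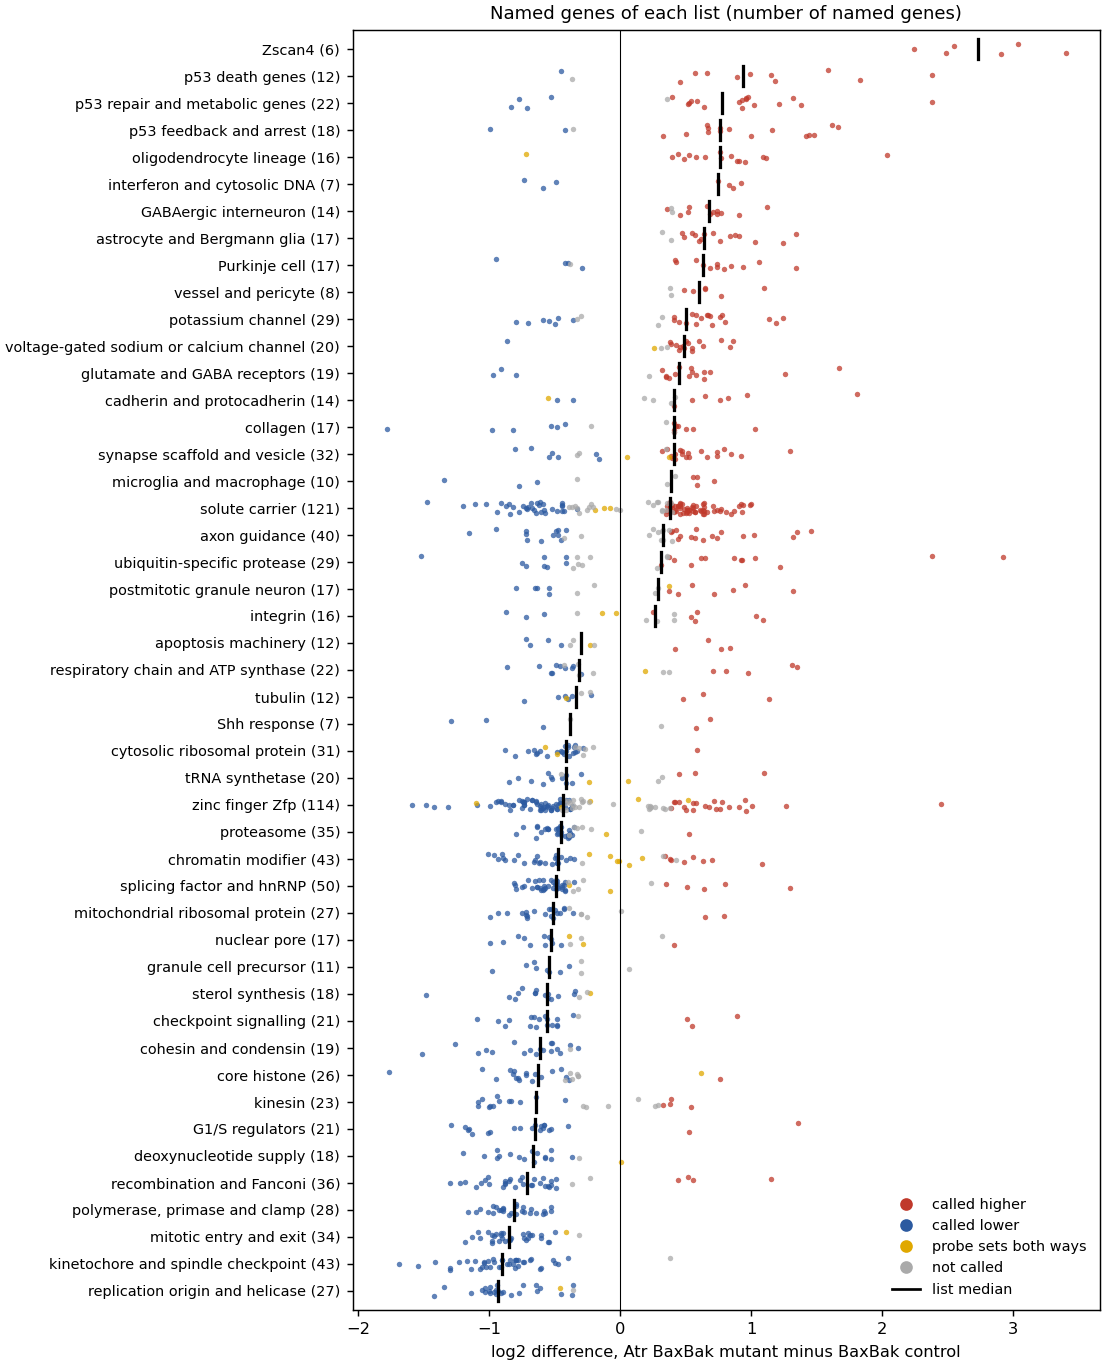
Log2 difference, mutant minus control, of every named member of each gene list; points are genes coloured by call, and the black bar is the list median. The p53 groups, glia and GABAergic neurons lie to the right of 0, and replication, mitosis and kinetochore genes to the left, with medians of 0.76 and -0.90 for p53 arrest and kinetochore genes.

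Several of the largest single differences lay outside these groups. Among called genes with at least 3 named probe sets and both groups above the negative controls, the highest were Zfp750 (2.45), a zinc finger gene known from epidermal differentiation, Usp17le (2.38), Fas and Cd80 (both 2.38), and Alox5 (2.32), the arachidonate 5-lipoxygenase gene. Alox5 had 32 named probe sets at 7.36, 7.55 and 7.47 in mutants and 5.08, 5.18 and 5.18 in controls, 4.99-fold apart (SE 0.07, adjusted p = 3.46e-09). Them5 (2.10), the interferon-inducible GTPase gene Igtp (1.88), Vwce (1.81) and the sarcoglycan gene Sgca (1.75) followed the same pattern. The lowest was 2810417H13Rik, which RefSeq lists as Pclaf and whose product binds PCNA, at 6.99, 7.12 and 6.71 against 9.19, 9.30 and 9.09 (4.77-fold lower; -2.25 ± 0.10, adjusted p = 1.15e-07). An exon region of 2810417H13Rik (-3.43) is among the chromosome 9 probe sets given below. The deubiquitinase gene Usp44 (-1.52) and Depdc1b (-1.50) were among the 12 lowest, beside Sgol1, Bub1 and Esco2.

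The Zscan4 genes, which are otherwise known from the 2-cell embryo and from rare embryonic stem cells, lay under the negative controls in control animals and above them in mutants. All 6 named members were called higher. Zscan4c read 5.77, 6.51 and 7.59 in mutants against 3.27, 3.04 and 3.35 in controls and was at least 5.72-fold higher (adjusted p = 1.39e-05). Zscan4f (4.91, 5.64 and 6.78 against 2.62, 2.69 and 2.89) was at least 3.17-fold higher. The bounds were 3.38-fold for Zscan4a and 2.42-fold for Zscan4e. In all 4 genes mutant 3 was the highest and mutant 1 the lowest, so the members share their spread between samples. The copies are near identical in sequence, and the array may not tell them apart.

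Junction and exon region probe sets gave different balances. Of exon regions 5.57% were called, 2.79% higher and 2.78% lower, and of junctions 4.73%, 1.35% higher and 3.39% lower. The balance also shifted with brightness. Probe sets were ranked by mean signal and cut into 10 bins of equal size. In bin 3 from the dimmest, 2.93% of exon regions were higher and 0.45% lower, whereas in bin 9, 3.49% were higher and 6.1% lower. Junctions were more often lower in every bin. Negative controls were 0.325 brighter on the mutant arrays, and their part in these counts was not tested.

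**Figure D3:**
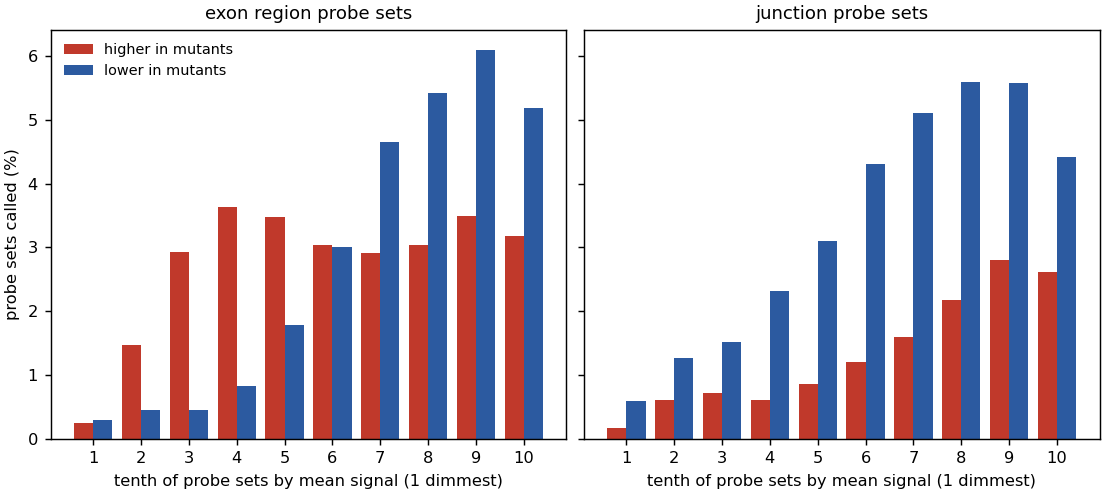
Percent of probe sets called higher or lower in the mutants in each of 10 bins of mean log2 signal, for exon regions and for junctions. Higher calls exceed lower calls among dim exon regions (2.93% against 0.45% in bin 3), and lower calls exceed higher calls among junctions in all 10 bins.

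The deepest falls of single probe sets sat on chromosome 2 and chromosome 9, as read from the probe set identifiers. This pattern was chosen after its values were seen. Of the 21 called probe sets with a log2 difference under -3, 13 carry the code of chromosome 2, 7 that of chromosome 9 and 1 that of chromosome 13, and 18 are junctions. On chromosome 2, an exon region of Tmem87a, a Golgi membrane protein gene, read 3.52, 3.17 and 3.28 in mutants, under their negative controls, and 8.24, 9.08 and 9.31 in controls (log2 difference -5.55 ± 0.22, adjusted p = 3.49e-05). It read 8.92 to 9.16 in the Atr p53 mutants and 8.93 to 8.97 in the p53 controls. A junction of Ubr1, an N-end rule ubiquitin ligase gene, read 2.76, 2.90 and 2.12 against 7.43, 8.25 and 8.43. Junctions of Frmd5 (-4.40), Zfp106 (-4.27), 1700020I14Rik (-4.22, Oip5os1 in RefSeq), Haus2 (-3.55) and Ivd (-3.25) behaved alike. Where mutants lie under the negative controls, the size of such a difference rests on signal not above background.

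In all 13 chromosome 2 probe sets the 3 mutants lay below each of the other 9 samples of the study. Control 1 was also the lowest of the 3 controls in all 13, by 0.62 to 3.44 under the mean of controls 2 and 3 (median 1.0). Other named probe sets of the same genes had medians of -0.44 in Tmem87a (6, from -2.88 to 1.75), -0.86 in Ubr1 (8, from -2.92 to 0.27), -1.25 in Zfp106 (5, from -1.50 to -0.38) and -0.76 in Ivd (13, from -1.93 to -0.44). Haus2 had no other named probe set. Between Ivd and Frmd5 in RefSeq order there were 45 named genes, of which 29 were lower, 7 higher and 8 (17.8%) called in both directions, against 3.3% in both directions over 7597 matched genes. The median log2 difference of the stretch was -0.64 in this pair of groups and -0.06 in the p53-deleted pair. Deep junction falls were not confined to that stretch. In runs of 500 identifiers, the runs with most junctions called lower by over 2 on the log2 scale lay on chromosome 2 (14, 7 and 6). The run with 6 went from Fam227b to Snrpb, and no run of another chromosome held more than 4. Bub1 lies on chromosome 2 too. Whether its fall, here and against the p53-deleted pair, belongs to this pattern was not tested. The cause of the pattern was not tested.

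On chromosome 9 a junction of Cyb5r4, a cytochrome b5 reductase gene, read 2.12, 1.83 and 2.64 in mutants and 6.85, 7.41 and 6.73 in controls. It was low also in the Atr p53 mutants (1.85, 2.39 and 2.56) against the p53 controls (5.72, 5.71 and 5.80), and so in both groups with floxed Atr. These low values lie under the negative controls, and a single junction does not stand for the whole gene. Atr loss and anything else carried with the floxed allele cannot be told apart here. The cause of the chromosome 9 values was not tested. Of the 7 probe sets, 3 had every Atr p53 mutant below every p53 control. A junction of Ttk, the spindle checkpoint kinase gene, fell in both (-3.68 and -3.19), and another fell in the apoptosis-blocked pair alone (-4.20, against 0.63 with p53 deleted). The 7 also include an exon region of 2810417H13Rik, the lowest gene above (-3.43, against -0.57 with p53 deleted).

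Some genes changed in both directions at different probe sets. St18, a zinc finger gene, had 19 lower probe sets (-1.61 to -0.58) and 2 higher ones (1.04 and 1.16), the latter dim in both groups. Wdfy1 had exon regions at -1.05 and at 1.19. In Heatr5b and Asph the opposed probe sets nearly cancelled, and the gene means were -0.20 and -0.02. A mean over a gene hides such changes, and isoforms were not resolved here.

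**Figure D4:**
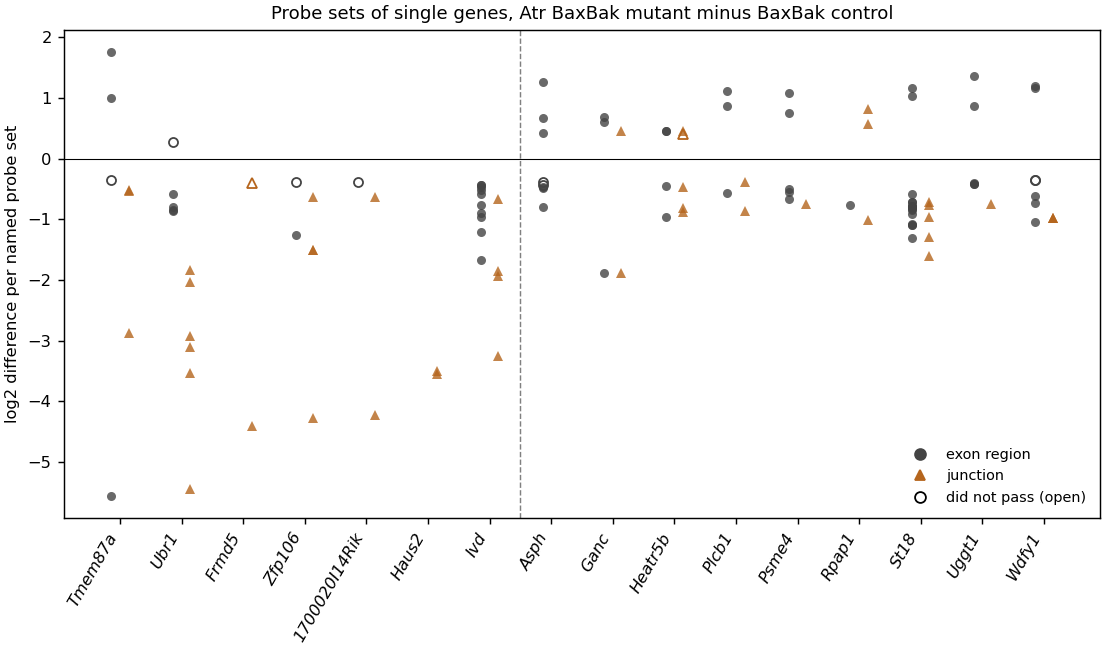
Log2 difference of each named probe set in the 7 chromosome 2 genes (left of the dashed line) and in 9 genes with calls in both directions (right); points are exon regions or junctions. In Tmem87a the probe sets run from -5.55 to 1.75, and in St18 from -1.61 to 1.16.

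The effect of Atr loss was set against that in the p53-deleted background through the difference of the differences. Of all probe sets 582 (0.0809%) passed that test, 317 with a higher and 265 with a lower value in the apoptosis-blocked background, and 216 named genes (2.73%) had such a probe set. Dropping controls 1, 2 and 3 in turn gave 281, 167 and 232, and dropping mutants 1, 2 and 3 gave 462, 226 and 234. Without each Atr p53 mutant it was 223, 1034 and 277, and without each p53 control 861, 233 and 190. In the p53-deleted pair itself 32 probe sets (0.00445%) and, by gene mean, 196 named genes (2.48%) passed. The genes with a passing probe set included the p53 targets Fas (difference 2.29 ± 0.10), Cd80 (2.40), Pmaip1 (1.96), Tnfrsf10b (1.91), Eda2r (1.76) and Cdkn1a (1.44). Mdm2, Ccng1, Sesn2 and Bbc3 had none, although their mean differences with p53 deleted were -0.04, 0.04, 0.18 and 0.02. Named probe sets were selected in the apoptosis-blocked pair, which favours a larger difference there.

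Of the mitotic and replication genes, Sgol1 (-1.74), Bub1 (-1.44), Esco2 (-1.30), Cdk1 (-0.96), Tyms (-0.98) and Pcna (-0.70) had a lower value in the apoptosis-blocked background by the same test. Their own differences with p53 deleted were 0.05, -0.10, -0.21, -0.10, -0.22 and -0.04. Mcm2, Mcm6, E2f1 and Top2a had no passing probe set, with p53-deleted differences of -0.44, -0.28, -0.37 and -0.27. Of the 34 mitotic entry genes 8 had a passing probe set and of the 43 kinetochore genes 12. Among the 11 precursor markers there was none, beside a share of 2.73% over all named genes, so so few genes cannot show a lack. These mitotic, kinetochore and precursor groups hold 480, 667 and 65 named probe sets. More probe sets give a gene more chances to pass, so the counts are not comparable between groups. Atoh1 was 0.64 lower in one pair of groups and 0.40 lower in the other on average.

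**Figure D5:**
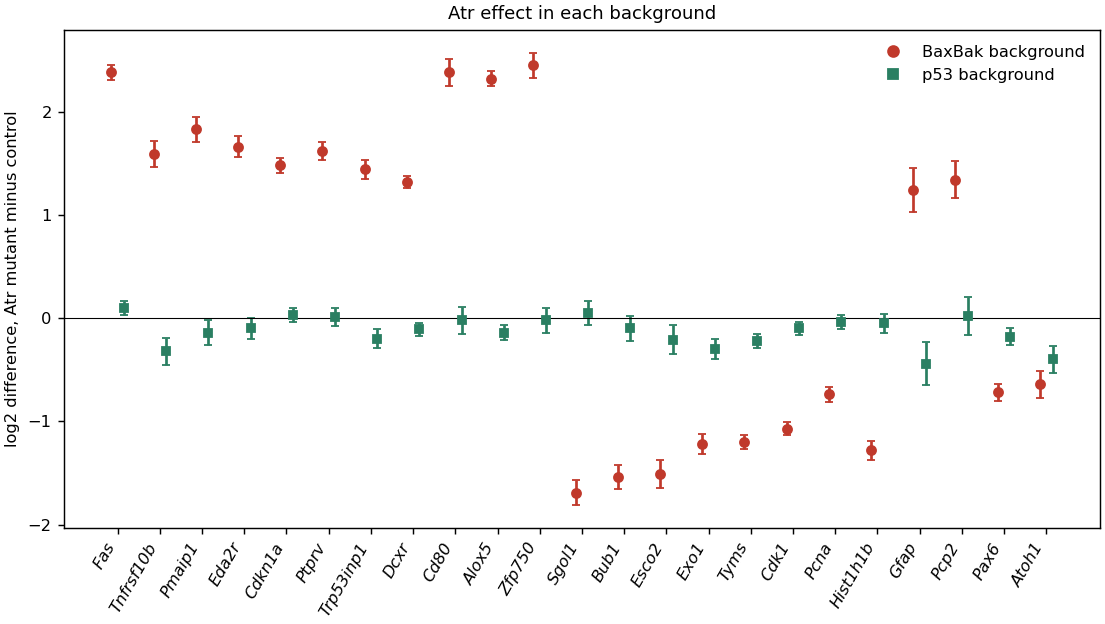
Log2 difference between Atr mutants and their controls, with its standard error, in the apoptosis-blocked background (circles) and the p53-deleted background (squares), for 23 genes. Fas stands at 2.38 and 0.10 and Bub1 at -1.54 and -0.10 in the respective backgrounds.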

How the data were processed

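Per the labels' protocols, RNA was isolated on RNeasy columns and labelled with the Affymetrix WT PLUS kit for an exon and junction array. The authors deposited log2 signals per probe set for 725678 probe sets. The submitters' processing notes name Partek but not its use, and neither background correction, normalization nor annotation build is given in the sources used here. Of these probe sets 61 had no values, 5222 were negative and 1324 positive controls, and 719071 were tested. A second deposited table of log2 values equalled the first where they overlap and was used for its B1 and B2 repeat probe sets alone. The authors' deposited table of this comparison gives a p-value, a step-up p-value and a signed fold score per probe set. It was used for gene symbols, which 30937 probe sets of 7916 genes carried alone. A further 691 with several symbols were left out, and 50 symbols turned into dates were restored. On the log2 scale the authors' folds and the group differences from the deposited values departed by at most 9.27e-05. RefSeq (GRCm38.p6) matched 7599 of the symbols and gave gene order and promoters.

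Differences were computed by lmFit and eBayes of limma 3.58.1 under R 4.3.3, with two-sided tests, over all 12 arrays, with 1 mean per group and 8 residual degrees of freedom. Benjamini-Hochberg adjustment ran over the 719071 probe sets or the 7916 genes, and the threshold was 0.05. Errors after ± are standard errors of log2 differences unless marked SD, and sample values are given in the order of replicate 1, 2 and 3, numbers that only name samples. The planned gene test was run on means of named probe sets because the table holds no gene values. Where 1 group's mean lay under the negative controls of its arrays, the fold is a bound, for which each array of that group counts with its gene signal or its negative control mean, whichever is larger. In simulated data, 70% of changes of 1 on the log2 scale were recovered. The number of arrays limits precision. The labels do not state whether the samples of one group come from different litters, and a p-value here measures only their spread, which may be technical. The members, the 32 gene lists and 20 name-based families and the tests were chosen with earlier results of these data known. Named genes were, per list, the 4 called members with the smallest adjusted p and those called the other way, the 12 highest and 12 lowest genes with at least 3 probe sets, 10 genes called both ways, and preset markers. Defining markers and the chromosome 2 and 9 probe sets are named beside them. Alternatives were leaving out each array, a filter on dim probe sets, quantile normalization, an intensity trend with robust prior, a negative control covariate, the sample name prefix as a random block, the 6 arrays alone, single kinds of probe set, the brightest probe set and genes with at least 3 probe sets. Some members of the lists are counted but not reported by name here.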

Additional observations from a re-analysis of the deposited data

Results flagged for a closer look

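Of all probe sets 582 gave a different effect of Atr loss in the apoptosis-blocked and the p53-deleted backgrounds by the interaction test. Genes that the naming rule covers and that had such a probe set are given, not every list member with one, with the difference of the differences (log2, apoptosis-blocked minus p53-deleted) of their mean. The mean rests on probe sets selected in the apoptosis-blocked pair.

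Among the p53 targets they included Cd80 (2.40), Fas (2.29), Pmaip1 (1.96), Tnfrsf10b (1.91), Eda2r (1.76), Trp53inp1 (1.64), Ptprv (1.61), Ano3 (1.49), Cdkn1a (1.44), Dcxr (1.42), Pidd1 (1.26) and Tap1 (0.94). Positive values were also found for Zscan4c (3.56), Zscan4f (3.21), Zscan4a (2.40), Zfp750 (2.47), Alox5 (2.46), Igtp (2.11), Usp14 (2.06), Them5 (2.04), Vwce (1.82) and Sgca (1.73). Smaller ones were those of Kcnj5 (1.22), Slc2a9 (1.12), Zfp365 (1.11), Sox10 (1.07), Grin2a (0.95), Sema5a (0.80) and Nrxn3 (0.70).

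Among the genes given here, negative values belonged mostly to genes of division, which fill many of the chosen lists. Those of mitosis, the kinetochore and cohesion included Sgol1 (-1.74), Bub1 (-1.44), Esco2 (-1.30), Ska1 (-1.21), Nuf2 (-1.13), Kif18a (-1.02), Cdk1 (-0.96), Plk4 (-0.92), Kif14 (-0.80) and Ube2s (-0.79). Replication and repair genes included 2810417H13Rik (-2.15), Prim1 (-1.01), Tyms (-0.98), Exo1 (-0.92), Rfc4 (-0.92) and Pcna (-0.70). Histone and chromatin genes included Hist1h1b (-1.23), Hist2h2ab (-1.09), Hist1h2bk (-1.0), Suv39h2 (-0.85) and H2afz (-0.69), and Nup37, a nuclear pore gene, stood at -0.87. The chromosome 2 genes Ubr1 (-1.99), 1700020I14Rik (-1.59), Zfp106 (-1.46) and Tmem87a (-0.95) and the transcript A830029E22Rik (-2.07) had the same sign.

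Outside the exon and junction probe sets, the second deposited table carries probe sets for mouse short interspersed elements. The 152 probe sets for B2 on the strand as listed had a median difference of 0.152 between mutants and controls. The group levels were 11.97, 11.98 and 11.88 in mutants and 11.84, 11.71 and 11.73 in controls, and 12.08, 12.07 and 11.87 against 11.53, 11.65 and 11.49 with p53 deleted. In both pairs the mutants lay above their controls. On the reverse strand B2 had a larger median difference of 0.234, but the samples overlapped (12.26, 12.06 and 11.78 against 11.92, 11.5 and 11.88). B1 had medians of 0.10 and 0.04 with overlapping samples. The negative controls differed by 0.325, more than any of these, and their part in the B2 values was not tested.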

How the results depend on the processing

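Of 37680 probe sets called between mutants and controls, the count lay between 7554 and 15943 with 1 array left out. It was 59417 with an intensity trend and robust prior, 759 with the negative control covariate and 6354 for junctions tested alone (1612 higher and 4742 lower). It stayed within 1.5 times with quantile normalization (36862), the prefix block (35208), the 6 arrays alone (33409), the filter on dim probe sets (51379) and exon regions alone (34291). The prefix block cannot part the prefix from the genotype, since all mutants share 1 prefix that no other group has. Its consensus correlation was 0.01, so that fit is close to the main one. Of called probe sets 42.5% were higher, against 47.9% after quantile normalization and 50.6% with the covariate. Of 6153 called genes, 2009 to 3422 were called with 1 array left out, 280 with the covariate and 2659 among the 2971 with at least 3 probe sets. The difference between backgrounds, 582 probe sets, ranged from 167 to 1034 with 1 array left out and was 1175 above the negative controls, 2893 with the trend and robust prior and 131 with the covariate. The covariate separates the groups, so its part and that of the genotype cannot be told apart. With it, 7 of 18 p53 feedback and arrest genes were called higher, and those called lower were 2 of 27 origin, 7 of 28 polymerase, 3 of 18 nucleotide, 2 of 21 G1/S, 7 of 34 mitotic entry, 13 of 43 kinetochore, 6 of 36 recombination, 1 of 21 checkpoint and none of 11 precursor genes. The negative control difference of 0.325 was 0.252 to 0.383 with 1 array left out and 0.365 by the median. Of 341 genes that could be named, 329 were called, and 63 to 110 calls were lost with 1 array left out, 257 with the covariate and 28 with the 6 arrays alone. Reversals were Dclre1c by its brightest probe set (-0.37, against 0.51) and Pard3 by its brightest and by exon regions only (0.27 in both, against -0.63), and the cause was not tested. No paired analysis was possible because the replicate numbers follow the order of the samples and pair none of them. Probe sets near the negative controls limit what can be said of dim genes.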

Other observations

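Kinesin genes, which move chromosomes and cargo, moved both ways. Of 23 named members 13 fell and 4 rose, with the mitotic motors Kif20b (-0.97), Kif18a (-0.92) and Kif14 (-0.83) lower and Kif3a (0.54), Kif17 (0.38), Kif21a (0.39) and Kif26b (0.33), known from cilia, dendrites and neurons, higher. In the fits without 1 array, 13 were called lower and 0 to 1 higher. Among 12 tubulin genes 6 fell, with Tuba1c (-0.73) and Tubb5 (-0.47), and 3 rose, with Tuba8 (1.14), Tubg2 (0.63) and Tuba4a (0.48). Nuclear pore genes were lower in 11 of 17, among them Nup37 (-0.99) and Nup43 (-0.89), which belong to the same subcomplex of the pore, and Nup214 (0.41) was higher. Among 43 chromatin genes 26 fell, including Cbx1 (-0.93), Hmgb2 (-0.90) and Suv39h2 (-0.81), and 8 rose, with Tet2 (0.70) and Kmt2d (0.63) among them. With 1 array left out, 1 to 2 tubulin genes were lower and 1 to 2 higher, 7 to 10 pore genes were lower and none higher, and 14 to 22 chromatin genes were lower and 2 to 5 higher.

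Solute carrier genes rose in 63 and fell in 34 of 121 (median 0.38), and collagen genes rose in 8 and fell in 6 of 17. With 1 array left out the solute carrier counts were 14 to 31 higher and 6 to 21 lower, and those of collagen 0 to 2 and 1 to 3. The tRNA synthetase genes fell in 12 and rose in 3 of 20, with 0 to 5 lower and 0 to 1 higher when 1 array was left out, and Wars, the tryptophanyl enzyme gene, was the highest at 1.10. Respiratory chain and ATP synthase genes rose in 5 and fell in 10 of 22, among them the complex I subunit gene Ndufs3 (0.98) upward and the complex I assembly gene Ndufaf1 (-0.86) downward, and the fits without 1 array called 2 to 5 higher and 1 to 3 lower.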
